A study of Mus musculus with 21 samples.

Results

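The genes described here encode the subunits of the ionotropic receptors for glutamate, GABA and glycine. They were chosen by symbol, as every gene in the count tables named Gria, Grik, Grid or Grin, Gabra to Gabrr, or Glra or Glrb followed by the usual number and letter, and these were 42 of 24391 genes. They comprised 18 glutamate, 19 GABA and 5 glycine receptor genes. The study set newborn mice with a heterozygous Jak1 knock-in, written as the alleles H595D, I596I and Y597Y over wild type, beside wild-type (WT) mice on the C57BL/6 strain. H595D changes the protein of the kinase JAK1, and I596I and Y597Y are silent changes made in the same repair. All mice were sampled at P0, the day of birth. Brain, liver and skin of 2 knock-in (KI) mice and 5 WT mice gave 21 libraries made from extracted total RNA, with 7 libraries per tissue. The study bred heterozygous mice from a founder male that was mosaic, and none of the WT mice carried the silent changes. The comparison of KI with WT asks how the JAK1 substitution alters expression in each tissue.

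Ionotropic receptors are ion channels that open when transmitter binds. AMPA receptors carry fast excitation, kainate receptors modulate it on both sides of the synapse, and NMDA receptors admit calcium when glutamate arrives together with depolarization. GABA-A and glycine receptors are chloride channels, which are inhibitory in the mature brain and often depolarizing in the newborn brain, where neurons hold more chloride. The subunits of each family are exchanged during development, so that the newborn brain uses other combinations than the adult brain.

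The brain libraries differed in ways that the genotypes do not account for. The 7 brain libraries held 26549326 to 35606374 counts on genes, and WT 5 was the smallest of them. Jak1 itself lay between 114 and 186 CPM (counts scaled to a common library size) in the WT brains and between 183 and 189 CPM in the KI brains, and since the substitution leaves the gene in place its level does not check the labels. Neuronal markers were abundant in every brain, and the summed level of the list of 8 neuron markers was 7946 to 8303 CPM in WT 1 to WT 4, 9351 CPM in WT 5, and 7233 and 7921 CPM in the KI brains. Markers of brain region differed far more among the WT brains. The summed level of 10 forebrain genes was 225, 96.8, 80.1, 253 and 723 CPM in WT 1 to WT 5 and 250.2 and 313 CPM in KI 1 and KI 2. Hoxa5, a gene of the hindbrain and spinal cord, had 3954, 44, 2976, 1568 and 77 counts in WT 1 to WT 5 and 1482 and 1895 counts in KI 1 and KI 2. The choroid plexus gene Ttr ran from 20.7 CPM in WT 2 to 2548 CPM in WT 5. WT 2 and WT 3 thus had the lowest forebrain sums, and WT 5 was low in hindbrain genes and high in forebrain and choroid plexus genes. The labels call all of them brain. Nothing in the labels states litters or dissection, so that p-values measure the spread between these mice and whatever pieces of brain were taken.

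Many of the receptor genes lie in clusters, most of them GABA receptor genes. Taking genes less than 2000000 bases apart, 20 of the 42 genes fell into 7 clusters in NCBIM37 (mm9). The clusters of Glra1 with Gria1 and of Gria2 with Glrb held no GABA receptor gene. Gabrg1, Gabra2, Gabra4 and Gabrb1 lie together on chromosome 5 (71142286 to 72529628), and Gabre, Gabra3 and Gabrq on chromosome X (69501338 to 70087941). The receptor genes are long. Their median locus spanned 110088 bases, beside 23290 bases for the genes tested in brain.

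Promoters of 29 of the 42 genes, as 33 sequences of 250 bases before to 50 bases after a RefSeq start on GRCm38.p6, were at hand. Those of 4 genes to which the results below return are shown: Grik3 and Grin2d, which were higher in KI brain once WT 5 was left out, Gabrg1, which was lower, and Glra3, which had no count in WT 5. Capitals mark the GC box GGGCGG or its reverse complement CCGCCC, and the TATA box TATAAA or its reverse complement TTTATA. A GC box and a TATA box share no letters and so cannot overlap.
Grik3: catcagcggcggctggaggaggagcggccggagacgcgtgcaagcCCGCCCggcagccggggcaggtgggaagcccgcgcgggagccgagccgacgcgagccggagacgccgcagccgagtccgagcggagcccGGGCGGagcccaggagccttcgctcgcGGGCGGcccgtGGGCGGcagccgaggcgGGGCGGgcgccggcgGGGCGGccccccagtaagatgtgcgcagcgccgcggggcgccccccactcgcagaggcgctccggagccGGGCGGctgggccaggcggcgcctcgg
Grin2d: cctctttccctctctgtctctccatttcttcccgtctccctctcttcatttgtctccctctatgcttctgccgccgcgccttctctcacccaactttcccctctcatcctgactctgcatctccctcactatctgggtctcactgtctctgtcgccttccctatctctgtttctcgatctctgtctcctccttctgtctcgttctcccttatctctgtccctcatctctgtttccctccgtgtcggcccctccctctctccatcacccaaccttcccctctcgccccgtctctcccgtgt
Gabrg1: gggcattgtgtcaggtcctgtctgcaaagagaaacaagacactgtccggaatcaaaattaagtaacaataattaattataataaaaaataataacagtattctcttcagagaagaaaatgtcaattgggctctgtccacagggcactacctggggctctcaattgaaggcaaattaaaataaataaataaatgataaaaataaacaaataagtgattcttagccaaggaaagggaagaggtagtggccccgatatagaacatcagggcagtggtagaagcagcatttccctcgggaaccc
Glra3: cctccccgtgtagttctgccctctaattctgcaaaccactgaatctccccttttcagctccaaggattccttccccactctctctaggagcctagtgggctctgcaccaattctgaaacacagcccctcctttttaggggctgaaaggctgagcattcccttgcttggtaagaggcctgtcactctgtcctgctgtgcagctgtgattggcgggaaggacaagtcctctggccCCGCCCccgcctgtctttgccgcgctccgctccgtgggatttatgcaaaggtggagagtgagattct
The Grik3 promoter (chr4:125490446-125490745, plus strand) held 7 GC boxes and 50 CG dinucleotides. That of Gabrg1 (chr5:70842568-70842867, minus strand) held neither box and 3 CG dinucleotides. Grin2d (chr7:45866632-45866931, minus strand) had 12 CG dinucleotides and neither box, and Glra3 (chr8:55940168-55940467, plus strand) had 8 and 1 GC box. A GC box was found in 15 of the 33 receptor promoters, 45.5%, and in 35.7% of all 32851 promoters. A TATA box was found in 5 of 33, 15.2%, and in 13.6% of all. The median receptor promoter held 11 CG dinucleotides and the median of all promoters 7. A match of letters does not show a site in use.

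In the WT brain, receptor RNA was led by a small set of subunit genes. Levels of different genes were compared as CPM per kilobase of exon (CPM per kb), and are given as mean ± SD over the 5 WT brains. Among the highest were Grik5 at 66.5 ± 19.3, Glra2 at 63.04 ± 10.4 and Gabra3 at 57.2 ± 12.8 CPM per kb. Grik5 and Glra2 could not be ordered, since Grik5 exceeded Glra2 in 2 of 5 WT brains. Gria2 (49.7 ± 12.1), Gabra5 (39.6 ± 1.8), Glrb (33.9 ± 10.9), Gria1 (29.7 ± 4.2) and Gria4 (27.7 ± 8.1 CPM per kb) were also high. At the other end, Gabra6, Gabrp, Gabrr2 and Gabrr3 had at most 7 counts in any WT brain and did not pass the filter on low counts, which left 38 genes tested in brain. Glutamate receptor genes made up 42.99 ± 3.0% of the summed level, GABA receptor genes 41.7 ± 1.4% and glycine receptor genes 15.3 ± 1.8% (n = 5 for each). The glutamate share was 46.7% and 49.1% in KI 1 and KI 2, within or above the WT range of 40.2% to 47.2%.

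**Figure D1:**
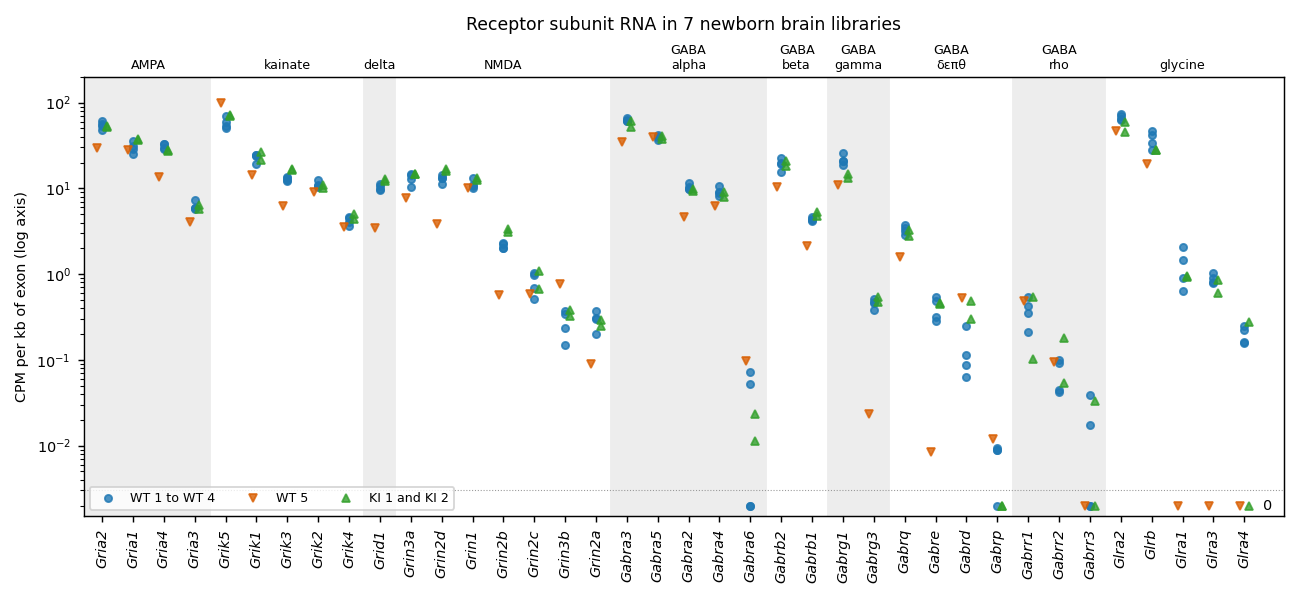
Level of receptor subunit genes in the 7 newborn brain libraries, in CPM per kb of exon on a log axis, with libraries at 0 drawn under the dotted line. Circles are WT 1 to WT 4, downward triangles WT 5 and upward triangles the KI brains, and Grik5, Glra2 and Gabra3 stand high in the WT brains while WT 5 lies low for most genes.

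Among the AMPA receptor genes, Gria2 was the largest, with 43.6% ± 2.6 of the family's level. Gria2 encodes the subunit that, once its RNA is edited, keeps calcium out of the channel. Its levels were 368, 332, 422, 397 and 208 CPM in WT 1 to WT 5 and 375 and 363 CPM in KI 1 and KI 2. It exceeded Gria1 in 5 of 5 WT brains, though in 4 of 5 when the length of the longest transcript was used. Gria1, the subunit most tied to activity-dependent insertion at synapses, had 189.6, 150.2, 174, 218 and 167 CPM in WT 1 to WT 5 and 220.2 and 229 CPM in KI 1 and KI 2. Both KI brains lay above all 5 WT brains for Gria1. Gria4 held 24.1% ± 3.8 of the AMPA level and Gria3 5.1% ± 0.4, and Gria1 and Gria4 could not be ordered.

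The RNA of the kainate receptor genes was dominated by Grik5, a high-affinity subunit that needs a partner from Grik1 to Grik3 to form a channel. Its share was 57.4% ± 10.2. The levels of Grik5 were 194, 227, 207, 271 and 377 CPM in WT 1 to WT 5 and 267 and 274 CPM in KI 1 and KI 2. WT 5 was the highest of all 7 brains, and it set the upper end of the range. Grik1 held 19.0% ± 5.0, Grik3 10.4% ± 3.3, Grik2 9.5% ± 2.0 and Grik4 3.6% ± 0.6 of the kainate level. Grik3 and Grik2 changed places with the length used, since Grik3 was the higher in 4 of 5 WT brains per kb of joined exons and in 0 of 5 per kb of the longest transcript.

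The delta receptor genes encode channel-like proteins that bind cerebellins across the synapse. Grid1 had 58.7, 65.9, 59.3, 68.1 and 21.3 CPM in WT 1 to WT 5 and 78.7 and 74.02 CPM in KI 1 and KI 2. WT 5 was far below the other brains, and both KI brains were above all 5 WT brains.

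NMDA receptors pair the obligatory subunit Grin1 with Grin2 or Grin3 subunits. Per kb of joined exons Grin3a held 32.0% ± 2.3, Grin1 30.6% ± 7.3 and Grin2d 28.8% ± 7.1 of the family. Their order was not settled, since Grin3a exceeded Grin2d in 3 of 5 WT brains. The joined exons of Grin1 span 9700 bases and its longest transcript 4276, and with the longest transcripts Grin1 exceeded Grin2d in 5 of 5 WT brains. Grin3a, a subunit of juvenile neurons that lowers calcium entry, had 162, 231, 203, 224 and 122 CPM in WT 1 to WT 5 and 235 and 231 CPM in KI 1 and KI 2. Grin1 had 98.6, 103, 127, 105 and 99.2 CPM in WT 1 to WT 5 and 121 and 127 CPM in KI 1 and KI 2. Its WT levels lay close together, with WT 3 the highest.

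Of the 4 Grin2 genes, which set the speed of the receptor, Grin2d took 79.0% ± 2.7 of their summed level per kb, Grin2b 12.8% ± 1.2, Grin2c 6.3% ± 3.3 and Grin2a 1.8% ± 0.5. The lengths come from GENCODE vM1 and the annotation behind the counts is not given, so a mismatch between them would shift these shares. Grin2b and Grin2d are the forms known from the developing brain, and Grin2a from the maturing brain. Grin2d had 65.2, 83.9, 77.1, 78.3 and 22.6 CPM in WT 1 to WT 5 and 100.04 and 93.1 CPM in KI 1 and KI 2. Grin2b had 16.4, 18.9, 18.5, 16.4 and 4.63 CPM in WT 1 to WT 5 and 27.5 and 25.3 CPM in KI 1 and KI 2. For both, WT 5 was the lowest and both KI brains were above all 5 WT brains. Grin2a stood low, at 1.995, 1.62, 1.602, 1.07 and 0.478 CPM in WT 1 to WT 5 and 1.54 and 1.31 CPM in KI 1 and KI 2, with 12 to 66 counts. Grin3b, a subunit known from motor neurons, had 15 to 64 counts.

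Among the GABA-A alpha subunits, which shape affinity and place at the synapse, Gabra3 held 45.2% ± 4.8 and Gabra5 32.3% ± 5.7 of the level. Gabra3 had 249, 256, 239, 242 and 135 CPM in WT 1 to WT 5 and 240.1 and 203 CPM in KI 1 and KI 2. WT 5 had the lowest level, and it was the 1 WT brain in which Gabra5 exceeded Gabra3. Without WT 5, Gabra3 held 47.2% ± 1.3 and Gabra5 29.8% ± 1.5. Gabra5 itself was even across all brains, from 97.8 to 111 CPM in the WT brains. Gabra2 had 27.5, 24.95, 23.3, 23.2 and 11.1 CPM in WT 1 to WT 5 and 23.3 and 22.02 CPM in KI 1 and KI 2, with WT 5 the lowest. Gabra6, a gene of mature cerebellar granule cells, had 0 to 6 counts.

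Each GABA-A receptor also holds beta subunits, and most hold a gamma subunit, which bears on where the receptor sits. Gabrb2 had 154, 222, 197, 189 and 103 CPM in WT 1 to WT 5 and 205 and 182 CPM in KI 1 and KI 2. Gabrb1 had 14.4, 12.9, 13.5, 13.2 and 6.499 CPM in WT 1 to WT 5 and 16.4 and 14.9 CPM in KI 1 and KI 2. WT 5 was the lowest for both, and both KI brains lay above all 5 WT brains for Gabrb1. Gabrg1 had 123, 100.3, 98.4, 89.3 and 52.5 CPM in WT 1 to WT 5 and 69.99 and 63.9 CPM in KI 1 and KI 2. For Gabrg1 the KI brains lay below WT 1 to WT 4 and above WT 5. Gabrg3 was under 1% of the gamma level in every WT brain, with 205, 139, 177, 192 and 7 counts in WT 1 to WT 5 and 229 and 193 counts in KI 1 and KI 2.

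The remaining GABA-A genes were rare. Gabrq, a subunit of brainstem and hypothalamus, led the delta, epsilon, pi and theta group, with 15.4, 18.2, 20.04, 17.02 and 8.57 CPM in WT 1 to WT 5 and 17.4 and 14.8 CPM in KI 1 and KI 2. Gabrd, a subunit of receptors outside synapses, had 6 to 38 counts in the WT brains and 50 and 30 counts in KI 1 and KI 2. Gabre, a neighbour of Gabrq on chromosome X, had 85, 42, 48, 77 and 1 counts in WT 1 to WT 5 and 75 and 75 counts in KI 1 and KI 2. The rho subunits, which are best known from the retina, were led by Gabrr1, with 16, 38, 31, 27 and 28 counts in WT 1 to WT 5 and 44 and 8 counts in KI 1 and KI 2, and the KI brains took both the highest and the lowest count.

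The glycine receptor alpha RNA of these newborn brains was almost wholly that of Glra2. Glra2, the embryonic alpha subunit, made up 97.3% ± 1.8 of the level of the 4 alpha genes (n = 5), beside 1.5% ± 1.2 for Glra1, the alpha subunit of the adult spinal cord and brainstem. Glra2 had 218, 232, 197, 201 and 145 CPM in WT 1 to WT 5 and 186 and 145 CPM in KI 1 and KI 2. WT 5 and KI 2 were the lowest and about equal. Glrb, the beta subunit that ties glycine receptors to gephyrin, held 33.7% ± 5.0 of the level of all 5 glycine receptor genes and ran from 63.8 to 154 CPM in the WT brains. Glra1 had 117, 68, 159, 52 and 0 counts in WT 1 to WT 5 and 81 and 77 counts in KI 1 and KI 2. Glra3 had 122, 130, 153, 127 and 0 counts in WT 1 to WT 5 and 142 and 97 counts in KI 1 and KI 2. Neither gene had a count in WT 5, which at 3 counts allows a level of up to 0.1196 CPM. Glra4 had 0 to 17 counts in the WT brains.

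**Figure D2:**
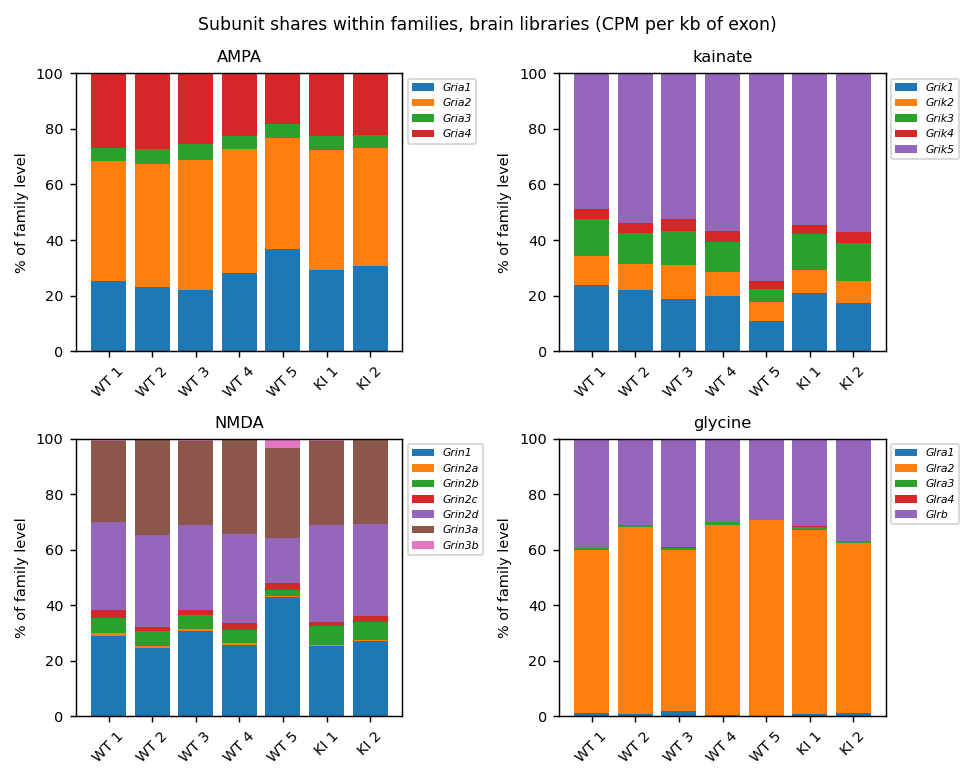
Share of each subunit in the summed level of its family (CPM per kb of exon, in percent), for the AMPA, kainate, NMDA and glycine receptor genes in the 5 WT and 2 KI brains. Grik5 and Grin1 take larger shares in WT 5 than in the other 6 brains.

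The library WT 5 stood below the other WT brains for most receptor genes. It lay below the range of WT 1 to WT 4 for 30 of the 38 tested genes and above it for 3, namely Grik5, Gabrd and Grin3b. Of all 16322 tested genes, 36.9% lay below that range in WT 5 and 36% above it. The median receptor gene was -0.87 in log2 CPM relative to the mean of WT 1 to WT 4, and the median of all genes was 0.01. For each of the other WT brains the receptor genes' median lay between 0.23 and 0.28, and at most 4 of 38 lay below the range of the rest. Since WT 5 enters the mean that WT 1 to WT 4 are compared with, these medians are partly set by WT 5. Receptor genes took 0.238% of the counts in WT 5, 0.361% to 0.374% in WT 1 to WT 4, and 0.359% and 0.371% in the KI brains. In a bulk sample, fewer cells of a kind and less RNA per cell cannot be told apart.

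**Figure D3:**
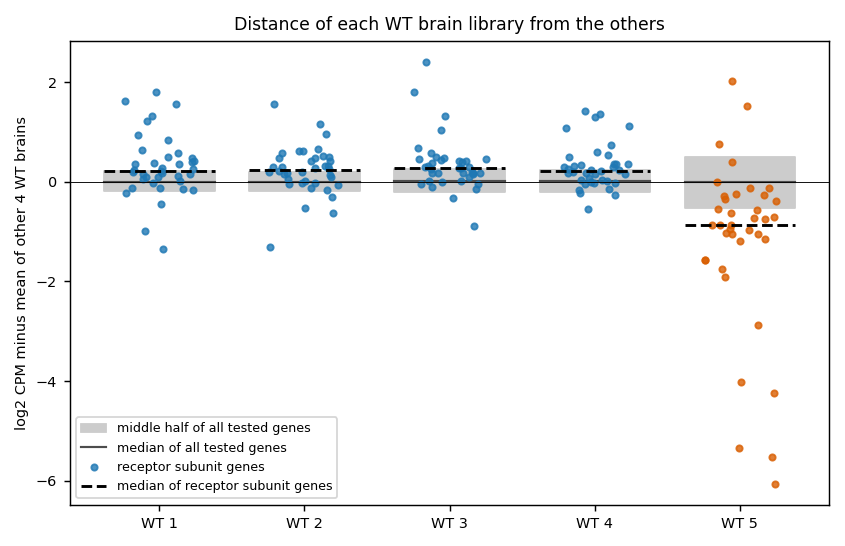
Distance of each WT brain library from the mean of the other 4 WT brains, in log2 CPM, for the 38 tested receptor genes (points, dashed line at their median) and for all tested genes (grey band for the middle 50%, solid line at the median). The receptor genes of WT 5 have a median of -0.87 and reach below -6, while the medians of WT 1 to WT 4 are slightly above 0.

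The receptor genes were not lower in WT 5 by 1 common factor. Among the 5 farthest from WT 1 to WT 4 were Glra3, Glra1, Gabre and Gabrg3, with 0, 0, 1 and 7 counts in WT 5. In WT 1 to WT 4, Glra3 had 122 to 153 counts, Gabre had 42 to 85 and Gabrg3 had 139 to 205. All 5 glycine receptor genes, and Grid1, Gabrb1, Gabrb2 and Gabrg1, were below the range of the other WT brains. Gabra5, at 99.7% of the mean of WT 1 to WT 4, Grin1, at 91.6%, and Gria1, at 91.6%, were inside it. Grik5 was at 168% of that mean.

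Other genes moved with the receptors in WT 5. The summed level of 10 genes of hindbrain and spinal cord was 16.4 CPM in WT 5 and 38.9 to 392 CPM in WT 1 to WT 4, and that of 10 forebrain genes was 723 CPM against 80.1 to 253 CPM. WT 2, with 38.9 CPM of the hindbrain genes, was the next lowest, and had 68 counts of Glra1 and 130 of Glra3. Slc6a5, the glycine transporter of glycine neurons, was at 9.301 CPM in WT 2 and had 1 count in WT 5. Genes with a long locus were also lower in WT 5, with a median of -0.42 in log2 CPM in the longest 25% of genes, which hold 28 of the 38 receptor genes, and 0.45 in the shortest 25%. The part of region and of gene length in the low receptor levels of WT 5 was not tested.

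**Figure D4:**
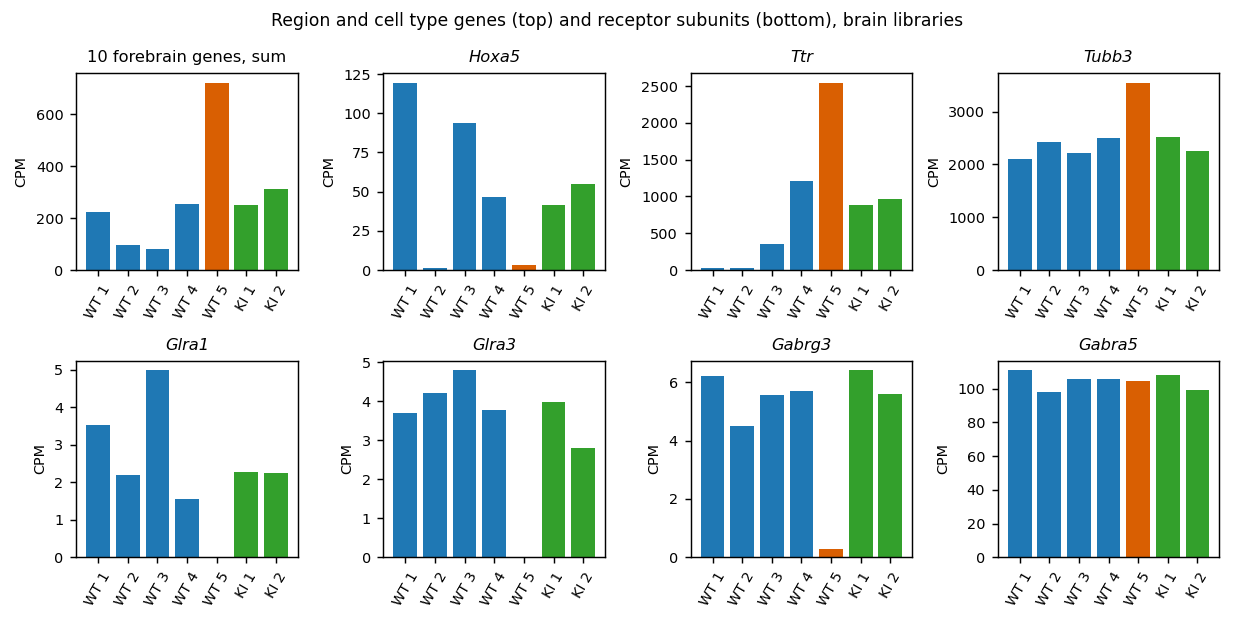
Levels in CPM of 10 forebrain genes (summed), Hoxa5 (hindbrain and spinal cord), Ttr (choroid plexus) and Tubb3 (neurons) in the top row, and of the receptor genes Glra1, Glra3, Gabrg3 and Gabra5 in the bottom row, in each of the 7 brain libraries (1 bar each; blue WT 1 to WT 4, orange WT 5, green KI). The forebrain sum is lowest in WT 2 and WT 3 and highest in WT 5, and Glra1 and Glra3 are at 0 in WT 5 where Gabra5 stays near 105 CPM.

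With all 7 brains in the test, no receptor gene was called between KI and WT. The quasi-likelihood test of edgeR, adjusted over 16322 genes, called 0% of the genes at an adjusted p under 0.1, and 0 of the 38 receptor genes had an unadjusted p under 0.05, beside 10.6% of all genes. DESeq2 called 514 genes and 0 receptor genes. The median log2 fold change of the receptor genes was 0.07, and that of all genes -0.02. Both KI brains lay above all 5 WT brains for Gabrb1, Gria1, Grid1, Grik3, Grin2b and Grin2d, 6 of 38 genes, beside 11.6% of all genes. Both lay below all WT brains for 0 of 38, beside 15.5% of all genes. The standard errors were wide. The change was 0.94 ± 0.76 for Gabrd, 0.81 ± 0.44 for Grin2b and 0.56 ± 0.41 for Grin2d (log2 fold change ± SE), and the adjusted p from edgeR was 0.576 for Grin2b.

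Without WT 5, 5 receptor genes were called. Grin2b, Grik3, Grin2d and Grid1 were higher in KI brain and Gabrg1 was lower. The same fit called 4.14% of all genes higher and 6.32% lower, beside 4 and 1 of the 38 receptor genes. In this fit 10 of the 38 had an unadjusted p under 0.05, beside 22.5% of all genes, and the median receptor gene was at -0.0085.

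Grin2b rose by 0.60 ± 0.12 in log2 without WT 5 (edgeR, adjusted p = 0.0395), from a mean of 17.6 ± 1.4 CPM in WT 1 to WT 4. The KI brains, at 27.5 and 25.3 CPM, stood clear of the highest of these WT brains, at 18.9 CPM. Over the alternatives tried its adjusted p ran from 0.000610 to 1.00 and its change from 0.58 to 1.08, always upward. Grin2d rose by 0.36 ± 0.10 (edgeR, adjusted p = 0.08103), from 76.1 ± 7.9 CPM in WT 1 to WT 4 to 100.04 and 93.1 CPM.

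Grik3, the kainate subunit with the promoter rich in GC boxes shown above, had 123, 110.1, 113, 120.2 and 56.2 CPM in WT 1 to WT 5 and 145 and 150.4 CPM in KI 1 and KI 2. Without WT 5 it rose by 0.36 ± 0.08 (edgeR, adjusted p = 0.0415), and both KI brains were above every WT brain. Grid1 rose by 0.29 ± 0.09 (edgeR, adjusted p = 0.0983), just inside the threshold. Across the alternatives, the adjusted p ran from 0.00393 to 1.00 for Grik3, from 0.0653 to 1.00 for Grid1 and from 0.0310 to 1.00 for Grin2d.

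Gabrg1 fell by 0.60 ± 0.13 in log2 without WT 5 (edgeR, adjusted p = 0.0426), from a mean of 103 ± 14.3 CPM in WT 1 to WT 4. Its adjusted p ran from 0.000308 to 1.00 over the alternatives. Its neighbours on chromosome 5 were not called, at -0.11 ± 0.12 for Gabra2, -0.09 ± 0.12 for Gabra4 and 0.23 ± 0.13 for Gabrb1. Gabra3 at -0.14 ± 0.08 and Gabrb2 at 0.04 ± 0.13 were not called either.

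**Figure D5:**
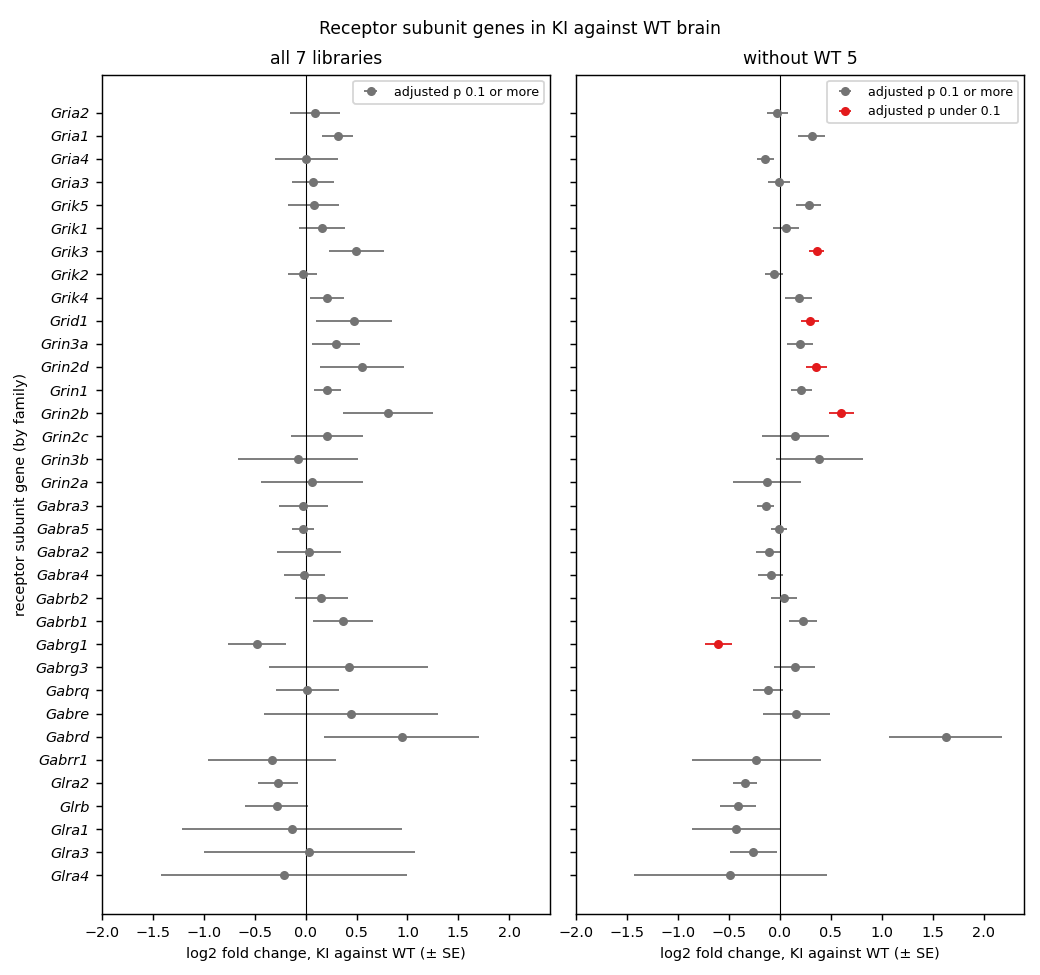
Log2 fold change of KI against WT brain with its standard error for tested receptor genes, ordered by family, with all 7 libraries (left) and without WT 5 (right). No gene passes an adjusted p of 0.1 on the left, and on the right Grik3, Grid1, Grin2d and Grin2b lie above 0 and Gabrg1 below 0 in red.

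The median changes of the families differed in sign without WT 5, also among the GABA receptor families. The median change was 0.21 for the 7 NMDA genes, 6 of them above 0, and 0.18 for the 5 kainate genes. It was -0.02 for the 4 AMPA genes, -0.11 for the 5 tested alpha genes and -0.41 for the 5 glycine genes, of which 0 were above 0. For the 3 beta genes it was 0.04, and for the 3 tested delta, epsilon, pi and theta genes 0.16. The 1 tested rho gene was at -0.23. Glra2 was at -0.34 ± 0.11 (edgeR, adjusted p = 0.118) and Glrb at -0.41 ± 0.18 (adjusted p = 0.221). No test of a difference between families was made.

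The calls without WT 5 depended on which brains were kept. With WT 2, WT 3 and WT 5 all left out, Grin2b, Grin2d and Gabrg1 were called among 1275 genes, 3.45% of all genes higher and 4.51% lower, and with WT 2 and WT 3 left out but WT 5 kept, 0 receptor genes and 0 genes in all. DESeq2 without WT 5 called 8 receptor genes, among them the 5 and Glra2 and Glrb, both lower in KI, beside 5% of 20136 genes called higher and 7.8% lower. With the replicate number as a block, a fit that rests on WT 1 and WT 2 against KI 1 and KI 2, Gria1, Grik3, Grik5 and Grin1 were higher and Gabrg1, Glra2 and Glrb lower, beside 4.8% of all genes called higher and 8.47% lower. Grik3 and Gabrg1 were the 2 shared with the fit without WT 5.

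Several markers moved with the KI brains. The summed level of 8 neuron markers was 7921 and 7233 CPM in KI 1 and KI 2, narrowly below WT 1 to WT 4 for KI 1 (7946 to 8303 CPM). That of 8 astrocyte and radial glia markers was 2684 and 2685 CPM against 3607 to 5690 CPM. Sums of 7 erythroid markers (5.75 and 6.88 against 8.79 to 18.5 CPM) and 8 keratinocyte markers (50.9 and 48.8 against 59.0 to 73.3 CPM) were also lower. That of 9 photoreceptor and pineal markers was 9.502 and 11.9 CPM against 2.01 to 3.59 CPM. In the last list WT 5 was as high, at 12.2 CPM. Its erythroid sum, 6.18 CPM, lay between the KI brains, and its astrocyte sum, 3598 CPM, was just below WT 1 to WT 4. In the keratinocyte list WT 5 was the highest, at 108 CPM. Fabp7 made up most of the astrocyte sum. Long genes also moved: the longest 25% of loci had a median change of 0.10 without WT 5 and the shortest -0.09. After a trend on exonic length was taken out, the median receptor gene with all 7 brains went from 0.07 to 0.00662. The part of cell makeup, region and length in the receptor changes was not tested.

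Ratios that shift as the brain matures were compared within each library, which removes scaling. The Grin2a to Grin2b ratio, which climbs after birth, was -3.00, -3.50, -3.48, -3.86 and -3.11 in WT 1 to WT 5 and -4.10 and -4.21 in KI 1 and KI 2 in log2. Both KI brains were below all 5 WT brains, with a difference of -0.77 (2-sided exact permutation, p = 0.0952, adjusted over the 3 ratios 0.286). The smallest p that this 2-sided test allows with 2 against 5 brains is 0.0952, so it could not reach 0.05. The ratio of Slc12a5 to Slc12a2, the chloride exporter to the importer, differed by 0.03 (exact permutation, p = 0.952, adjusted 0.952) and its groups overlapped. Slc12a5 had 269, 368, 363, 299 and 215 CPM in WT 1 to WT 5 and 371 and 357 CPM in KI 1 and KI 2. Slc12a2 had 49.6, 44.4, 50.2, 54.5 and 46.6 CPM in WT 1 to WT 5 and 55.1 and 62.8 CPM in KI 1 and KI 2.

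Genes that work with the receptors were counted from 5 lists. With all 7 brains edgeR called 0 of them in KI against WT. Without WT 5, 5 of 20 scaffold genes of the glutamate synapse were higher in KI and 0 lower, beside 4.14% and 6.32% of all genes, among them Shank1, Shank2, Shank3 and Dlgap1. Shank2, a scaffold beneath NMDA and AMPA receptors, went from 61.2 ± 4.9 CPM in WT 1 to WT 4 to 87.1 and 87.3 CPM, and WT 5 had 5.901 CPM. Dlgap1, which links the Dlg and Shank scaffolds, was even in WT, from 89.2 to 94.96 CPM, with 109 and 113 CPM in the KI brains. Camk2a, the kinase of the postsynaptic density, had 93.9 and 92.8 CPM in KI against 56.7 to 88.9 CPM in WT, and Dlg4, the scaffold PSD-95, 496 and 504 CPM against 398 to 476 CPM. Neither was called.

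The same shares of all genes stand beside the other 4 lists. Of 14 auxiliary subunits of AMPA and kainate receptors, Cacng4 was called higher without WT 5 (log2 0.43 ± 0.08, edgeR, adjusted p = 0.0374), and Cacng8 at 0.31 ± 0.14 and Shisa9 at 0.20 ± 0.10 were not. Among 15 genes of inhibitory synapses, Nlgn2, an adhesion protein of these synapses, was higher at 0.35 ± 0.10, and the GABA receptor-associated protein genes Gabarap at -0.34 ± 0.09 and Gabarapl2 at -0.46 ± 0.14 were lower. Gphn, the gephyrin scaffold, was at -0.01 ± 0.08 and not called. Among 20 genes of transmitter synthesis and transport, Slc17a7, the vesicular glutamate transporter of the cortex, was higher, with 3.87, 4.44, 4.81, 7.75 and 14.99 CPM in WT 1 to WT 5 and 19.5 and 14.2 CPM in KI 1 and KI 2. Its WT 5 level was inside the KI range, so the difference rests on WT 1 to WT 4. Slc12a2 at 0.26 ± 0.10 was not called. Among 13 tested metabotropic receptor genes, Gabbr2, a subunit of the GABA-B receptor, was higher, with 120.3, 148, 143, 126 and 5.54 CPM in WT 1 to WT 5 and 173 and 166 CPM in KI 1 and KI 2. WT 5 again stood far below all other brains. Kctd16 at 0.38 ± 0.22, Grm2 at 0.46 ± 0.23 and Kctd12 at 0.18 ± 0.13 were not called.

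Liver and skin gave a baseline. The study reports lower RNA integrity for its skin samples than for its liver samples, and the part of this in the skin levels was not tested. Of 33 receptor genes tested between WT brain and WT liver, edgeR called 32 higher in brain and 0 lower, beside 44.6% of all genes higher and 39.9% lower. The remaining gene was Grin3b. In WT skin, 31 of 35 were lower than in WT brain and 3 were higher, beside 39.6% of genes higher in brain and 39% lower. The 3 genes higher in skin were Gabrp, with 52 to 292 counts in WT skin and 0 or 1 in WT brain, Gabrr2 and Grin3b, and Gabre was not called. Grin3b passed narrowly (edgeR, adjusted p = 0.0538) and was not called without replicate 1, 2 or 4, with adjusted p of 0.144, 0.206 and 0.1202. In the liver libraries alone 10 receptor genes passed the filter on low counts, and in the skin libraries alone 24. The rest entered these tests mostly through their brain counts, so their calls as higher in brain were largely set in advance. Receptor genes together had 685 to 1300 counts per liver library and 3389 to 6212 per skin library, beside 63313 to 132026 per brain library.

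In WT liver 13 receptor genes had no count, among them Glra2, Gabra5, Gabrg1, Grik2 and Grin1. With 3 counts per library as the floor, Glra2 was at least 2212-fold higher in brain, Grin1 at least 1183-fold and Gabra5 at least 1167-fold. Skin had no count of Gabra6, Glra2 and Glra3 in WT mice. Grik5 was the highest receptor gene in both tissues, at 4.36 ± 0.47 CPM per kb in WT liver and 13.2 ± 3.8 in WT skin. In liver Gria3 (0.765 ± 0.14) and Gabra3 (0.277 ± 0.22 CPM per kb) came next, and in skin Gabra3 (2.75 ± 1.4) and Glrb (1.86 ± 0.69 CPM per kb).

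No receptor gene was called between KI and WT in either tissue. In liver 10 were tested and 0 called, beside 5.57% of all genes, and 1 had an unadjusted p under 0.05. That gene was Gabrp, with 0, 42, 6, 28 and 26 counts in WT 1 to WT 5 and 0 in both KI livers (edgeR, adjusted p = 0.167). The WT 1 liver was at 0 as well, and without it, with the replicate number as a block, or with DESeq2, Gabrp was called, with adjusted p of 0.0585, 0.0776 and 0.008197. In skin 24 were tested and 0 called, 0 of them at an unadjusted p under 0.05, beside 0.0247% of genes called. Grik5, the highest in both tissues, had 407 to 730 counts in WT liver and 578 and 486 in KI liver, and 1169 to 2282 counts in WT skin and 1566 and 1506 in KI skin.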

How the data were processed

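Total RNA extracted from brain, liver and skin of 5 WT and 2 KI newborns was made into libraries with a TruSeq RNA kit and sequenced. The authors aligned the reads to mm9 with TopHat2 and deposited raw counts per gene symbol from HTSeq. The library kit is not strand-specific, so reads of a gene and of an overlapping antisense gene cannot be told apart, and the counting mode and annotation are not given in the sources used here. The 5 summary lines of each file were left out, and 80.5 to 84.8% of uniquely aligned brain reads lay on genes. Samples were grouped by genotype and tissue labels.

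Within each tissue, genes passing filterByExpr were scaled by TMM and fitted in edgeR (version 4.0.16, R 4.3.3), whose quasi-likelihood F-test was used with Benjamini-Hochberg adjustment over all tested genes, and called at an adjusted p under 0.1. WT brain was compared with WT liver and skin without pairing, and a block on the replicate number changed no receptor call (edgeR). The sample titles do not state that tissues sharing a number came from the same mouse. DESeq2 1.42.0, its size factors, no filter, leaving out each library, a replicate block, 1 fit of 21 libraries, and length corrections were alternatives. Leaving out WT 5 with another tool, and leaving out WT 2 and WT 3, were chosen after seeing the data. CPM per kb used the joined exons of GENCODE vM1 (NCBIM37). Ratios were log2 of CPM with a prior count of 2. The fit was tested on simulated data. The receptor genes, lists and tests were chosen with earlier results of these data known. Values in every brain library were given for the leading gene of each family, the 5 genes with the smallest p in each brain fit, the 5 farthest from the other WT brains in WT 5 and the genes of the ratios, and from each partner list the 3 genes with the smallest p. Gabra5, Gabrd, Shank2, Gabbr2, Gphn and other genes outside these rules were chosen after their values were seen. Values of some genes are not reported here.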

Additional observations from a re-analysis of the deposited data

Results flagged for a closer look

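In the 5 WT brains, 15 of the 38 tested receptor genes had 1 library whose gap to the next, divided by the range of all 5, passed Dixon's critical value of 0.710 in log2 CPM. Of all tested genes 20.9% did so, and 19.0% through WT 5, where chance gives about 1 in 20. For 14 receptor genes WT 5 was the lowest. Among these, the ratio was 0.940 for Glra3, 0.896 for Grin2b, 0.892 for Gabrg3, 0.890 for Gabra3, 0.873 for Grid1 and 0.861 for Grik3. It was 0.859 for Gabrb1, 0.846 for Gria4, 0.816 for Gabra2, 0.814 for Glra4, 0.811 for Gabre, 0.807 for Grin2d and 0.739 for Glra1. For Grin1, WT 3 was the highest, with a ratio of 0.750.

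Grid1 moved in opposite directions in KI brain and KI liver relative to WT, with a difference of -1.82 in log2 between the liver and the brain effect. Both KI brains were above all WT brains. In liver its counts were 9, 14, 8, 9 and 17 in WT 1 to WT 5 and 0 and 9 in KI 1 and KI 2, and scaled to depth both KI livers lay below all WT livers, on few reads. The difference was not tested.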

How the results depend on the processing

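For KI against WT brain, where edgeR called 0 genes with all 7 libraries, DESeq2 called 514 genes and 1 fit of all 21 libraries 614. Leaving out WT 2, WT 3 and WT 5 called 1275 genes and 3 receptor genes. Leaving out WT 5 called 2576 and 8 with DESeq2, and 1657 and 4 with DESeq2 size factors. Leaving out single libraries called 0 to 1698 genes and 0 to 5 receptor genes, and every call came without WT 5. Replicate numbers did not pair KI with WT brains (r of deviations 0.02 and -0.10), and the replicate block called 2165 genes and 7 receptor genes. Glra3 reversed to -0.13 without WT 2, WT 3 and WT 5, to -0.27 without WT 5 under both DESeq2 settings, to -0.24 with the block and to -0.0144 after the length trend, and ran from -0.26 to 0.26 over single libraries. Glra1 reversed to 0.40 without WT 2 and WT 3 and to 0.0118 after the length trend, and ran from -0.43 to 0.29. Gabre reversed to -0.17 without WT 2, WT 3 and WT 5. The Slc12a5 to Slc12a2 difference was -0.12 with the block and ran from -0.10 to 0.15. In liver the 833 genes became 1462 with DESeq2 and 56 to 1290 over single libraries. DESeq2 and the block each called 1 receptor gene, and single libraries 0 to 1. In skin the 4 genes became 109 with DESeq2, 0 with the block and 0 to 1 over single libraries. Without length correction the shares were 50.3% for Gabra3, 46.5% for Grik5 and 49.1% for Grin3a. With the longest transcript they were 39.4% for Gria2 and 38.1% for Grin3a. The causes were not tested. With 2 KI mice and 5 WT brains that differ in region, the absence of a call does not show equal levels.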
